A study of Mus musculus with 2 samples.

Results

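The 9 genes examined here encode transcription factors of the macrophage lineage, namely Spi1, Cebpa, Cebpb, Cebpd, Maf, Spic, Runx1, Klf4 and Pparg. They were taken by symbol from the deposited tables, and all 9 were found among 22886 genes. The series holds 2 RNA sequencing libraries of FACS-sorted cells that the labels call aerobic and that came from subcutaneous tumors of Lewis lung carcinoma (LLC), a mouse lung tumor line that is transplanted into syngeneic animals. Both libraries came from wild type C57BL/6 mice. They differ in the injection, which was vehicle for 1 library and clodronate for the other. Clodronate is a bisphosphonate that is widely used in liposomes to kill phagocytic cells. The labels give neither the dose, the time, the age of the mice, the number of mice behind a library nor the sorting markers. A culture protocol for EML cells, a blood progenitor line, is also attached to both samples and conflicts with the labelled tissue. With 1 library per condition, no difference below has a replicate check and no p-value was computed.

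A macrophage keeps its identity through a small set of DNA-binding proteins that act together. PU.1, the product of Spi1, opens chromatin at myeloid enhancers, and factors of the C/EBP, Maf, Runx, Klf and nuclear receptor families bind beside it. Runx1 acts early in blood development and helps to switch Spi1 on. Others mark tissue programs, with Spic required for the heme-recycling macrophages of the spleen and PPARγ (Pparg) for alveolar macrophages.

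Of the 9 genes, 6 were at 28.4 RPKM or more in the vehicle library and 3 (Pparg, Cebpd and Spic) at 5.47 RPKM or less. RPKM is a read number divided by transcript length and by the depth of the library, so levels can be compared between genes. In the clodronate library the same 6 genes were at 30.7 RPKM or more. Log2 ratios of clodronate over vehicle were taken of RPKM + 1, and genes with a mean of 1 RPKM or more were kept. 5 of the 9 were higher in the clodronate library and 4 were lower, near the 51.6% higher and 48.4% lower among all genes kept, and after a correction of ratios for transcript length and GC content 4 were higher and 5 lower. Spi1 and Cebpd had the widest differences upward and Pparg and Spic the widest downward, whereas Cebpa, Cebpb and Runx1 differed by at most 1.15-fold in RPKM as deposited. After the same correction the log2 ratios of Cebpa and Cebpb, -0.20 and -0.18 as deposited, were -0.48 and -0.36, and that of Klf4 went from 0.29 to 0.12. Of the 10982 genes kept, 2.86% were higher with clodronate by 3-fold or more, and 2.32% lower by as much, beside 0 of the 9 factors in each direction. At 2-fold, 6.95% of the genes were higher and 6.77% lower, beside 1 of the 9 higher and 0 lower. The count of 0 holds for RPKM as deposited with a pseudocount of 1, since Pparg was close to 2-fold lower and passed it under 4 alternatives, and Spic under 1. Klf4, Spi1, Cebpb, Maf, Cebpa and Runx1 followed each other from the highest level down in the vehicle library, and in the clodronate library Spi1 came before Klf4. Pparg stood above Cebpd in the vehicle and below it in the clodronate library, and Spic was the lowest in both.

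**Figure D1:**
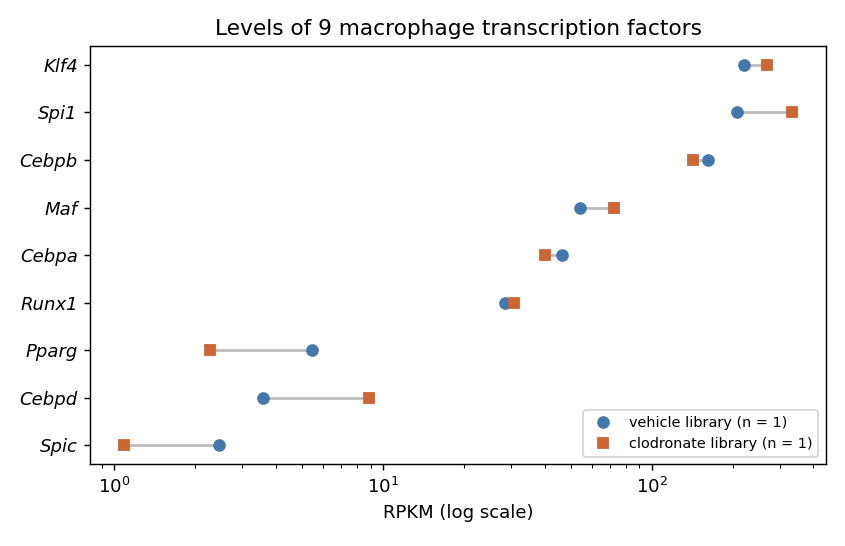
RPKM (x axis, log scale) of each of the 9 transcription factor genes (y axis, ordered by the vehicle library) in the vehicle library (circles) and the clodronate library (squares), 1 library each. Spi1 stood at 208 and 333 RPKM, and the 3 genes with the lowest levels have the widest gaps.

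The depth of the libraries, which the files do not state, was recovered from the lowest values. Among loci with few reads, RPKM times length fell on steps, and the first step put the total at about 13800000 sequenced fragments for the vehicle library and 11200000 for the clodronate library. Of 119 loci with 1 to 5 fragments in each library, 112 had a ratio between the libraries that equalled a ratio of whole numbers within 0.001%. Against lengths from an annotation, 75.5% of 498 loci with 1 to 5 fragments in the vehicle library and 63.8% of 930 in the clodronate library lay within 0.1 of a whole number, so that the totals are estimates. The vehicle library was 1.23 times as deep. From these steps the number of fragments behind each gene was worked out, and exact 95% intervals (Clopper-Pearson) of the fold between libraries are given with it. These intervals cover counting error only and say nothing about differences between mice, sorts or library preparations.

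The label of the sort does not name macrophages. All 12 genes of a macrophage marker list were present, with the lowest at 22.5 RPKM (Fcgr1) in the vehicle library and 42.3 RPKM (Fcgr1) in the clodronate library. Their levels summed to 26381 and 25078 RPKM. Of 7 genes of epithelial and carcinoma cells, Epcam, Krt19 and Cldn4 were listed at 0 in both. Cdh1 had 6.14 and 6.44 RPKM, Krt8 3.67 and 1.33, Krt18 2.97 and 3.19, and Nkx2-1 0.141 and 1.08. The list summed to 12.9 and 12.0 RPKM. In such bulk RNA, fewer cells of a type and less RNA per cell cannot be told apart.

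The 2 stretches of regulatory sequence below were chosen because they belong to Pparg and Spic, the factors with the widest differences downward. For 6 of the 9 genes, 9 promoter windows of RefSeq (build GRCm38.p6) were matched by symbol, with none for Spi1, Cebpd and Maf, and the 250 bases before each start were searched on both strands for 5 short motifs. These were GGAAGT (ETS), GAGGAA (PU.1), TTGCNNAA (C/EBP), TGTGGT (RUNX) and TGCTGA (Maf). The first and the second share GGAA, so that 1 stretch can match both. The most downstream Pparg window, on chr6:115421816-115422065 (plus strand), held the C/EBP letters at 2 places, which stand in capitals here, 215 to 208 bases before the start on the printed strand and 16 to 9 bases before it on the opposite strand. The printed Pparg window was the only 1 of that gene with the C/EBP letters, and the difference in level does not pick it from the others. Which start of Pparg these cells used is not known, since its 2 accessions share 1 value. The Spic window, on chr10:88683024-88683273 (minus strand), held the Maf letters 198 to 193 bases and the ETS letters, on the opposite strand, 48 to 43 bases before the start.

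Pparg: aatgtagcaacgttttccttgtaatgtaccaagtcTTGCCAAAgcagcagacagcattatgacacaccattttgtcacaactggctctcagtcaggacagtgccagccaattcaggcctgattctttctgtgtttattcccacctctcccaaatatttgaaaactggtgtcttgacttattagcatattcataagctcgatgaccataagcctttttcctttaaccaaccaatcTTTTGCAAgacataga

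Spic: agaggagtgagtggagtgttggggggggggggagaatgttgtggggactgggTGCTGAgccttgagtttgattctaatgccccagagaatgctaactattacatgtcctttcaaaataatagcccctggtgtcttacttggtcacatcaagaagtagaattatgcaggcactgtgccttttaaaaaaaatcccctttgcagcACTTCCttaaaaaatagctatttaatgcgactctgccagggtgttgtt

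Such letters are common. Over all 32851 promoter windows, 9.56% held the C/EBP letters, 19.7% the ETS letters and 16.1% the Maf letters. Among the other windows, a PU.1 match (23.3% of all windows) was found in 1 of Pparg and in 1 of Runx1, and none of the 5 motifs in the windows of Cebpa, Cebpb and Klf4. The RUNX letters (14% of all windows) were found in none of the 9. The matches describe sequence alone, and nothing in these libraries measures binding.

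Spi1 encodes PU.1, the ETS family factor on which the whole lineage depends. It lies on chromosome 2 from 90936953 to 90955913 in the files, whose build is mm9 by the submitters' processing notes. It stood at 208 RPKM in the vehicle library and at 333 RPKM in the clodronate library, from about 5231 and 6839 fragments. That is 1.60-fold higher with clodronate (counting interval 1.54 to 1.66), and the log2 ratio was 0.68. Spi1 was among the top 3.86% of the genes kept in the vehicle library and the top 2.49% in the clodronate library. Of 428 genes with a mean within 2-fold of that of Spi1, 16.6% had a log2 ratio at least as large in either direction.

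The 2 closest relatives of PU.1 had low levels and were lower in the clodronate library. Spic, on chromosome 10 from 88138014 to 88145768, stood at 2.46 RPKM in the vehicle and at 1.09 in the clodronate library. These values correspond to 36 and 13 fragments, so that Spic was 2.26-fold lower with an interval from 1.17 to 4.64. The fragment numbers imply a length of 1270 bases against a reference length of 1763, and are uncertain for that reason. Of 2180 genes with a mean within 2-fold of that of Spic, 42.6% had a log2 ratio at least as large in either direction. Spib, which acts in B cells and plasmacytoid dendritic cells, had 1.12 and 0.275 RPKM, or 40 and 8 fragments. Spi1, Spic and Spib are also found in B cells, whose 6 markers summed to 4.84 and 1.74 RPKM, with Pax5 listed at 0 in both. Ebf1 had 1.85 RPKM with vehicle and was listed at 0 with clodronate. Cd79b had 1.90 and 0.536 RPKM, and Cd79a 1.10 and 1.11 RPKM. The part of B cells in the values of Spic and Spib was not tested. Within a library, where no scaling can matter, Spi1 exceeded Spic 84.5-fold in the vehicle and 306-fold in the clodronate library. Of the 3 genes together, Spi1 made up 98.3% and 99.6% of the RPKM.

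Among the genes known as PU.1 targets, 7 of 12 were higher with clodronate and 5 lower. Their median log2 ratio was 0.13, against 0.02 over all genes kept, and with both libraries set to the same upper quartile 6 were higher and 6 lower. Fcgr1, a high-affinity IgG receptor, had 22.5 and 42.3 RPKM, and Csf2ra, a chain of the GM-CSF receptor, had 291 and 401 RPKM. On the other side, Cd14, the co-receptor for lipopolysaccharide, had 1560 and 1045 RPKM and Cybb, a subunit of the phagocyte oxidase, had 182 and 121 RPKM. Csf1r, the receptor for M-CSF and a classical PU.1 target, stood at 446 and 465 RPKM. The ratio of Spi1 to Csf1r within a library was thus 0.466 in the vehicle and 0.715 in the clodronate library.

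Of the C/EBP factors, Cebpb dominated in both libraries. C/EBPβ, its product, takes part in inflammatory and alternative activation of macrophages. Cebpb, on chromosome 2 from 167514414 to 167515918, had 162 RPKM in the vehicle and 143 in the clodronate library (about 2901 and 2082 fragments), 1.14-fold lower with an interval from 1.07 to 1.20. Cebpa, the factor that directs progenitors to the myeloid fate, lies on chromosome 7 from 35904311 to 35906951 and had 46.5 and 40.3 RPKM (about 1549 and 1095 fragments). It was 1.15-fold lower, with an interval from 1.07 to 1.25. The ratio of Cebpb to Cebpa was nearly the same in both libraries, at 3.49 and 3.55. A difference as large as that of Cebpa was seen in 72.2% of all genes kept, and for Cebpb in 74.5%.

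Cebpd stood apart from both in direction. C/EBPδ is an acute-phase factor that inflammatory signals induce. Cebpd had 3.60 RPKM in the vehicle and 8.86 in the clodronate library, or 102 and 205 fragments, 2.46-fold higher with an interval from 1.93 to 3.15. Its log2 ratio of 1.10 was the only one of the 9 past 2-fold on that scale. The files give Cebpd a locus on chromosome 16 from 15887378 to 16146926, which it shares with Spidr, a gene of DNA repair. Spidr had 3.27 and 6.05 RPKM, so that both genes of the shared locus were higher in the clodronate library. How reads there were divided, and whether strand was used, is not given in the sources used here, and the value of Cebpd is uncertain for that reason.

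As a share of the summed RPKM of 5 C/EBP genes, Cebpb made up 71.7% and 69.7%, Cebpa 20.5% and 19.7%, and Cebpd 1.59% and 4.32%. Cebpe, the factor of granulocyte maturation, was at 2.41 RPKM (about 28 fragments) with clodronate and listed at 0 with vehicle. Cebpg, which lacks an activation domain, had 14.1 and 10.5 RPKM. With Ddit3, a stress-induced factor at 44.7 and 59.8 RPKM, these relatives were 2 higher and 1 lower, and only Cebpe was past 3-fold. Of the granulocyte genes that C/EBP factors control, Mpo, Elane, Ltf, Lcn2 and S100a9 were listed at 0 in both libraries, while S100a8 had 12.7 and 23.1 RPKM from 33 and 49 fragments. Of the 8 C/EBP target genes kept, 4 were higher and 4 lower, with a median log2 ratio of -0.17 that was 0.09 among the 7 genes whose mean reached 5 RPKM. Il1b and Il6, inflammatory cytokines, were both lower with clodronate. Il1b had 278 and 97.2 RPKM and Il6 had 4.93 and 1.81 RPKM, while Arg1, an enzyme that consumes arginine, had 475 and 629 RPKM and Lyz2, lysozyme, 10534 and 11189 RPKM. The neutrophil markers found, 8 of 9, summed to 46.1 and 46.0 RPKM, with S100a9, Retnlg, Ngp and Camp listed at 0 in both. Of the 4 kept, S100a8 was higher with clodronate and 3 were lower, with a median log2 ratio of -0.44. The 3 were Csf3r with 26.4 and 19.3 RPKM, Cxcr2 with 4.06 and 2.69 RPKM, and Mmp8, 3.30-fold lower in RPKM without the pseudocount.

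**Figure D2:**
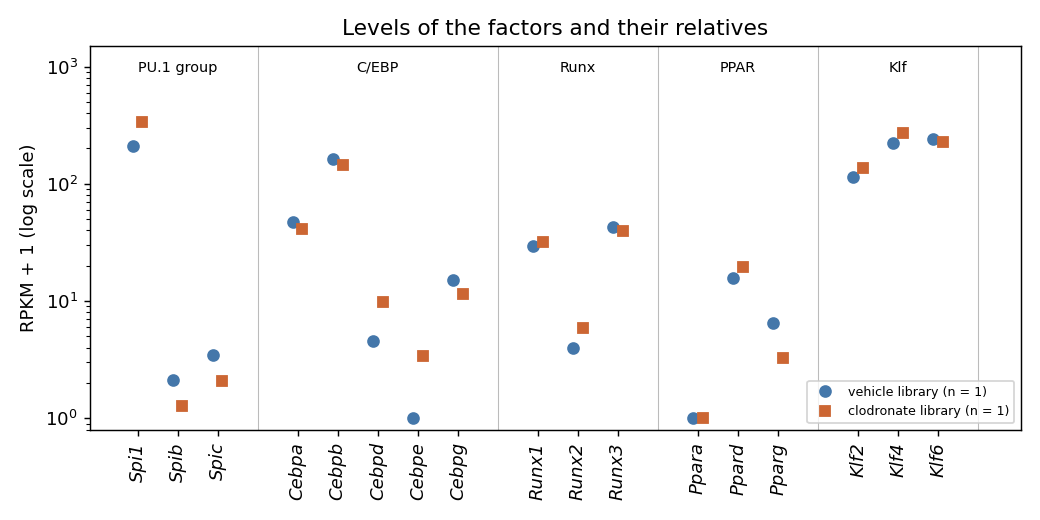
RPKM + 1 (y axis, log scale) of 5 families of the factors in the vehicle library (circles) and the clodronate library (squares), 1 library each, grouped by family along the x axis. In each library Spi1, Cebpb, Runx3 and Ppard lead their families, and a value of 1 is a gene listed at 0. Of the Klf genes shown, Klf6 leads in the vehicle and Klf4 in the clodronate library.

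Maf encodes c-Maf, a leucine zipper factor that drives Il10 and genes of resident macrophages. It lies on chromosome 8 from 118227152 to 118230794. Maf had 54.0 RPKM in the vehicle and 72.5 in the clodronate library (about 2556 and 2799 fragments), 1.34-fold higher with an interval from 1.27 to 1.42. Of the small Maf genes, Mafk had 18.5 and 37.4 RPKM and Maff 21.4 and 13.6 RPKM.

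Of 10 genes listed as targets of Maf factors, 9 were higher with clodronate, against 51.6% of all genes kept, and their median log2 ratio was 0.68. Once ratios were centred on the median of all genes, 7 of the 10 were higher. Il10, an anti-inflammatory cytokine, had 17.2 and 42.8 RPKM. Cd163, the scavenger receptor for haptoglobin bound to hemoglobin, had 17.5 and 42.4 RPKM, and F13a1, a coagulation factor subunit of resident macrophages, had 132 and 247 RPKM. Folr2, a folate receptor, had 275 and 477 RPKM. None of the 10 reached 3-fold, and 2 of them, Il10 and Cd163, reached 2-fold. The exception was C1qc, a chain of complement C1q, with 3984 and 2043 RPKM, whereas C1qa had 1185 and 1563 RPKM and C1qb 3372 and 3384 RPKM.

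Runx1 differed least of the 9. It lies on chromosome 16 from 92601710 to 92826311 with 4 RefSeq accessions in 1 value, so that its distal and proximal promoters could not be separated. Runx1 had 28.4 RPKM in the vehicle and 30.7 in the clodronate library (about 1723 and 1521 fragments), 1.08-fold higher with an interval from 1.01 to 1.16. A ratio as large was seen in 84.6% of all genes kept. Its log2 ratio of 0.11 became -0.0012 once ratios were corrected for transcript length and GC content, so that its direction depends on that step. Runx3 stood above Runx1 in both libraries, at 41.6 and 38.9 RPKM, and Runx2, the factor of bone formation, at 2.95 and 4.89 RPKM. Cbfb, the shared partner of the family, had 36.9 and 31.9 RPKM. Of 5 Runx relatives and partners, 4 were kept, 2 higher and 2 lower, or 1 higher and 3 lower once centred on the median of all genes, and none was past 2-fold. Of 8 known Runx1 targets, Csf2, Il3, Mpo and Tnfsf11 were listed at 0 in both libraries, and of the 4 kept, Spi1 and Csf1r were higher and Cd4 and Itgal lower.

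Klf4, a zinc finger factor required for inflammatory monocytes and for alternative activation, had the highest level of the 9 in the vehicle library. It lies on chromosome 4 from 55540008 to 55545347. Klf4 stood at 220.0 RPKM in the vehicle and at 268 in the clodronate library (about 8551 and 8512 fragments), 1.22-fold higher with an interval from 1.18 to 1.26. Whether neighbours such as Klf4 and Spi1 differ in level beyond the spread between mice cannot be said from single libraries. Klf2, a factor of quiescence, had 112 and 135 RPKM, and the ratio of Klf4 to Klf2 was 1.96 and 1.99. Klf6 had 239 and 226 RPKM, above Klf4 in the vehicle and below it in the clodronate library. Of the 8 other Klf genes kept, 3 were higher and 5 lower, with a median log2 ratio of -0.01, and after the correction for length and GC content 5 were higher and 3 lower.

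The genes of alternative activation, in which Klf4 takes part, had log2 ratios from -1.24 to 2.03. Of 8 genes, 6 were higher with clodronate and 2 lower, against 51.6% higher among all genes kept. The median log2 ratio of the 8 was 0.82. Beside 2.86% of all genes kept, 2 of the 8 were higher by 3-fold or more. These were Ccl24, an eosinophil chemoattractant, with 47.2 and 196 RPKM, and Clec10a, a galactose-binding lectin, with 14.7 and 61.2 RPKM. Retnla, a secreted marker of alternative activation, had 1074 and 3060 RPKM, and Mrc1, the mannose receptor, 174 and 289 RPKM. Chil3, a chitinase-like protein, went the other way with 36.4 and 14.8 RPKM, as did Pdcd1lg2 with 2.94 and 2.05 RPKM.

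Pparg, the lipid-activated nuclear receptor PPARγ, had the widest difference downward of the 9 in log2 ratio and in RPKM fold. It lies on chromosome 6 from 115311238 to 115440419 with 2 accessions. Pparg had 5.47 RPKM in the vehicle and 2.27 in the clodronate library, or 118 and 40 fragments, 2.41-fold lower with an interval from 1.67 to 3.54, which overlaps that of Spic. On the log2 scale with RPKM + 1 this was -0.98, just short of 2-fold, and 22.5% of 3250 genes with a mean within 2-fold of that of Pparg had a ratio as large. Of the 2 windows upstream of the one printed above, neither held the C/EBP letters. Pparg and Cebpa act in adipocytes, of whose 7 markers Adipoq, Plin1, Lep, Cidec and Cfd were listed at 0 in both. Together the 7 summed to 10.7 and 14.0 RPKM, all of it from Lipe (9.33 and 10.7 RPKM) and Fabp4 (1.33 and 3.25 RPKM).

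The relatives and partners of PPARγ had log2 ratios from 0.12 to 0.70. All 8 kept were thus higher with clodronate, against 51.6% of all genes kept, with a median of 0.38. After the correction for length and GC content, however, 5 of the 8 were higher and 3 lower. Ppard, which is expressed broadly, had 14.6 and 18.4 RPKM, so that the ratio of Ppard to Pparg was 2.67 in the vehicle and 8.12 in the clodronate library. Rxra, the common partner receptor, had 16.5 and 18.7 RPKM, Rxrb 13.7 and 22.8 RPKM, and Nr1h3, the oxysterol receptor LXRα, 27.2 and 31.0 RPKM. Ppara and Ppargc1a were listed at 0 in both libraries. The PPARγ target list had 7 genes higher and 3 lower of 10 kept, against 51.6% higher among all genes kept. The median log2 ratio of the 10 was 0.15, and none of them was past 2-fold on that scale. Cd36, a fatty acid transporter, had 71.9 and 81.7 RPKM and Plin2, a lipid droplet protein, 186 and 255 RPKM. Fabp4, the fatty acid carrier of adipocytes and macrophages, was 2.45-fold higher in RPKM without the pseudocount, from 13 and 26 fragments. Below the filter, Pdk4 was 4.76-fold lower, with 0.781 and 0.164 RPKM.

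Spic is also read beside the genes of heme and iron recycling. Of 10 such genes 4 were higher and 6 lower, with a median log2 ratio of -0.09. Slc40a1, the iron exporter ferroportin, had 5.87 and 2.46 RPKM (257 and 88 fragments), in the direction of Spic. Hmox1, the heme-degrading enzyme, had 396 and 789 RPKM, in the opposite direction, as did Cd163. Vcam1, an adhesion molecule of splenic red pulp macrophages, had 8.20 and 9.93 RPKM.

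**Figure D3:**
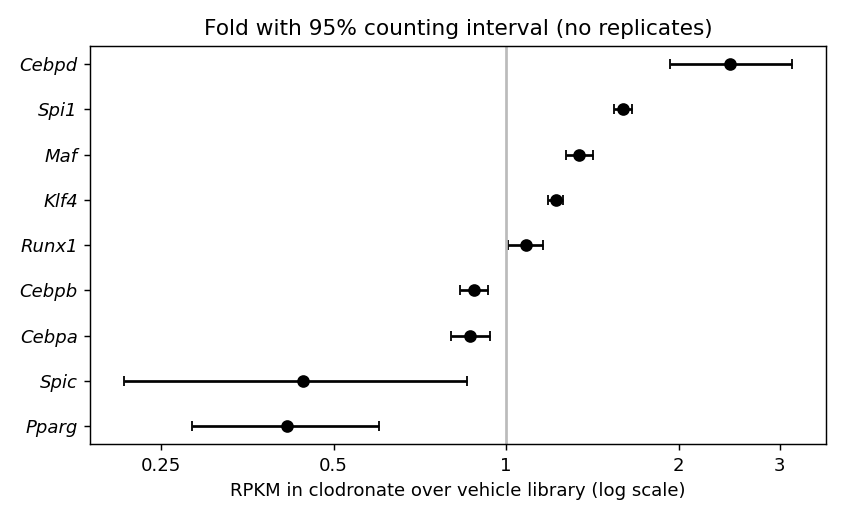
RPKM in the clodronate over the vehicle library (x axis, log scale) for each factor, with bars for the exact 95% counting interval from the fragments behind each value. Cebpd (1.93 to 3.15) and Pparg (0.283 to 0.599) lie farthest from 1, Spic has the widest interval, and the bars do not include differences between mice.

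Over all 9 factors the median log2 ratio was 0.11, but -0.0012 after the correction for length and GC content and 0.29 over the 7 factors whose mean reached 5 RPKM. The median over the 10982 genes kept was 0.02, and the central 95% of these genes lay between -1.55 and 1.66. All 9 passed the filter of a mean of at least 1 RPKM. None of the 9 lay outside that central range, and the plot of ratios by level shows them within the bulk of genes of similar level.

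**Figure D4:**
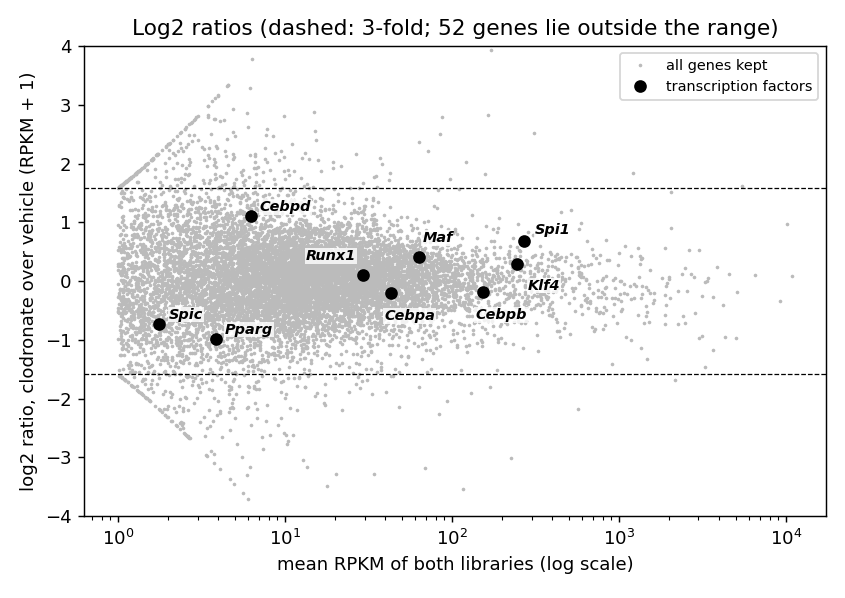
Log2 ratio of clodronate over vehicle (y axis, RPKM + 1) against the mean RPKM of both libraries (x axis, log scale) for all genes kept (grey) and the 9 factors (black), with dashed lines at 3-fold and 52 genes outside the plotted range of 4 in either direction. All 9 factors lie between the dashed lines.

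Other transcription factors of the lineage were read from a list. Of 31 genes 27 were kept, of which 17 were higher with clodronate and 10 lower, against 51.6% higher among all genes kept. The median log2 ratio of the 27 was 0.15. Zeb2, which keeps resident macrophages in their tissue program, had 130 and 136 RPKM, Irf8, a partner of PU.1, 36.3 and 39.0 RPKM, and Nr4a1, the factor of patrolling monocytes, 303 and 294 RPKM. Bhlhe40, which supports proliferation of macrophages, had 243 and 312 RPKM. The 1 gene past 3-fold was Batf3, the factor of cross-presenting dendritic cells, at 5.77 RPKM (about 38 fragments) with clodronate and listed at 0 with vehicle. Gata6 and Sall1, which mark peritoneal macrophages and microglia, were at 0.0485 and 0.302 RPKM in the vehicle library and listed at 0 in the clodronate library. Of 10 ETS relatives, 8 were kept, with 4 higher and 4 lower and none past 2-fold.

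Signals that act on these factors were read from their receptors. Il4ra, the receptor chain for IL-4, had 60.7 and 98.2 RPKM, while Il4 itself was listed at 0 in both libraries. Csf2rb had 46.1 and 51.6 RPKM and Csf1, the ligand of Csf1r, 6.08 and 6.45 RPKM. Il34, the other ligand of Csf1r, had 2.06 RPKM in the vehicle library, about 44 fragments, and was listed at 0 in the clodronate library. Il10ra, a receptor chain for IL-10, had 95.6 and 64.7 RPKM. Of the 12 cytokines and receptors listed, 10 were kept, 7 higher and 3 lower, but 5 higher and 5 lower after the correction for length and GC content, and only Il34 was past 3-fold.

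**Figure D5:**
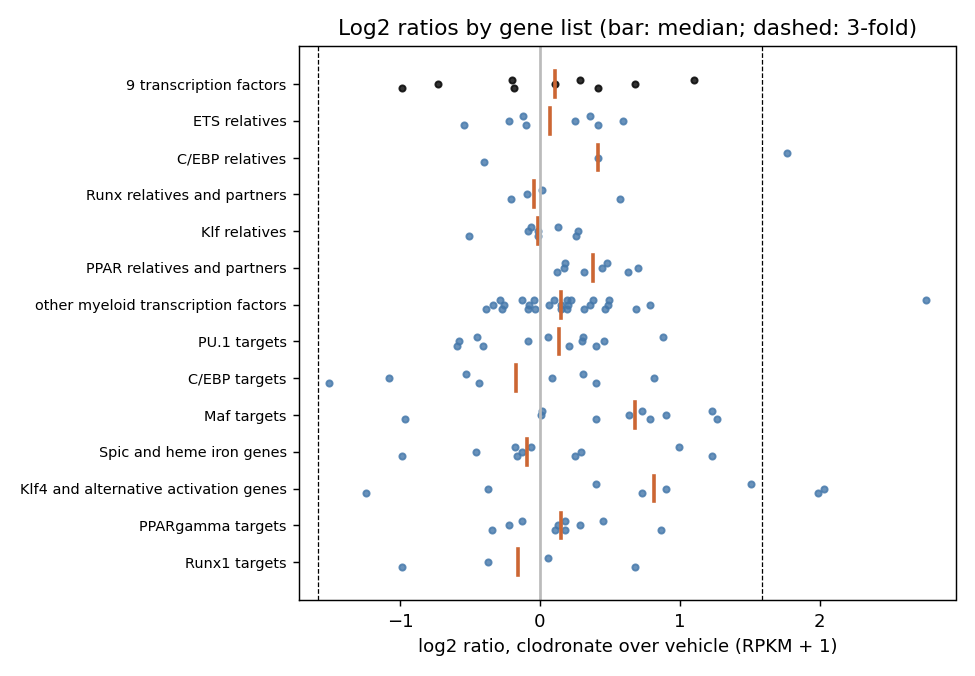
Log2 ratios of clodronate over vehicle (x axis, RPKM + 1) of the genes kept in each list (y axis), with 1 point per gene, a bar at the median of each list and dashed lines at 3-fold. The 9 factors spread from -0.98 to 1.10 around a median of 0.11, while the lists of Maf targets (0.68) and alternative activation (0.82) have the medians farthest from 0.

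Several of the 9 genes are also active in other cells, whose markers were read as well. Klf4 and Cebpd are expressed in fibroblasts, whose 8 markers summed to 156 RPKM in the vehicle and 75.4 in the clodronate library, with 5 of the 6 kept lower. The 7 endothelial markers summed to 3.34 and 7.84 RPKM, with Tek, Cldn5 and Emcn listed at 0 in both. The 2 endothelial markers kept were higher, Cdh5 with 0.480 and 3.24 RPKM and Pecam1 with 1.24 and 3.33 RPKM. Below the filter, Kdr had 0.650 and 0.831 RPKM and Vwf 0.967 and 0.443 RPKM. Maf and Runx1 are expressed in T cells, of whose 9 markers, with those of NK cells, only Cd4 had a mean of at least 1 RPKM, and the list summed to 11.6 and 9.79 RPKM. Genes of mast cells and basophils, which express Runx1 and Gata2, summed to 112 and 87.4 RPKM over 6 genes, with Mcpt8 listed at 0 in both. The 8 dendritic cell markers summed to 12.2 and 15.4 RPKM, of which Cd209a was past 3-fold, with 1.25 and 8.68 RPKM. The 8 markers of blood progenitors summed to 7.64 and 5.30 RPKM, with Gata1 listed at 0 in both. The part of any of these cells in the differences of the 9 factors was not tested.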

How the data were processed

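RNA sequencing was deposited for 2 libraries, 1 from mice given vehicle and 1 from mice given clodronate, and samples were grouped by the description in their labels. The authors deposited RPKM values for 23170 loci per library, with a RefSeq accession, a symbol and a locus. The submitters' processing notes name CASAVA 1.8.2, TopHat2 2.0.9, Bowtie 0.12.9, Cufflinks 2.2.1 and Cuffdiff and the build mm9, while the annotation release, the filters and the use of strand are not given in the sources used here. As RPKM is no count, count models were not used.

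From these values, RPKM of loci with the same symbol were summed (22886 genes), 26 symbols that had become numbers were replaced by the accession, and 10982 genes whose mean reached 1 RPKM were kept. A pseudocount of 1 was added to both RPKM values before the log2 ratio (clodronate over vehicle) was taken, so that ratios of weakly expressed genes are understated. Fold values with an interval are ratios of RPKM without a pseudocount. The value of 1 fragment in each library was fitted on 176 and 268 loci over 600 bases long, with lengths of GENCODE M21 transcripts of the same accession, or of the locus or the RefSeq gene where shorter. Fragments of Spic, Cebpd, Pparg, Spib, S100a8, Slc40a1 and Fabp4 were solved as whole numbers. These are the largest, up to 400 in all, that give the ratio of both values within 0.001% at a plausible length. Fragments given for the other genes were computed from length and are approximate.

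All 9 factors and any gene of the fixed lists could be named, and 231 of 232 list genes were found, 2 of them under an older symbol. Some genes of the lists are not reported here by name. The factors and the lists were chosen with earlier results of these data known. Alternatives were another pseudocount, other filters, 3 other scalings, the highest locus of each symbol, a correction for length and GC content and a 2-fold threshold. The steps were tested on simulated data. Python 3.11.15, numpy 2.4.6, pandas 2.3.3, scipy 1.17.1 and matplotlib 3.10.9 were used.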

Additional observations from a re-analysis of the deposited data

How the results depend on the processing

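No paired analysis was possible because neither condition was replicated. Of the 9 factors, 8 kept their direction under each of the 8 alternatives that gave them a value. Most of these alternatives could not have reversed a direction. Another pseudocount or filter cannot do so by construction, and the highest locus of each symbol left the ratio of each factor unchanged. The 3 scalings shifted all ratios by nearly the same amount, which was less than the smallest ratio of the 9. Only the correction for length and GC content moves genes separately. The log2 ratio of Spi1 lay between 0.46 and 0.68, that of Cebpd between 1.02 and 1.28, that of Pparg between -1.23 and -0.85 that of Spic between -1.11 and -0.55, that of Cebpa between -0.48 and -0.20, that of Cebpb between -0.36 and -0.18, that of Klf4 between 0.12 and 0.29 and that of Maf between 0.33 and 0.42. A mean of at least 5 RPKM gave no value for Spic and Pparg, whose means are lower. Correcting for length and GC content moved the log2 ratio of Runx1, and with it the median of the 9 factors, from 0.11 to -0.0012, and the cause was not tested. That median was 0.29 over the 7 factors whose mean reached 5 RPKM. At 2-fold in place of 3-fold, 1 factor (Cebpd) was counted as higher and 0 as lower, with Pparg past 2-fold lower at a pseudocount of 0.1 (-1.23), centred on all genes (-1.003) or on the macrophage markers (-1.02) and at the same upper quartile (-1.03), and Spic at a pseudocount of 0.1 (-1.11). Over all genes, the counts of 314 higher and 255 lower were 532 and 480 with a pseudocount of 0.1, 127 and 101 among genes whose mean reached 5 RPKM, and 763 and 744 at 2-fold, settings that by construction change how many genes can pass. Depth limits Spic most, with 36 and 13 fragments. Counting error was the only error that could be given, since no library was replicated.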
